A study of Mus with 18 samples.

Results

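The genes described here are 10 that encode the enzymes of prostaglandin and leukotriene synthesis and a partner protein: Pla2g4a, Ptgs1, Ptgs2, Ptges, Ptges2, Ptges3, Tbxas1, Alox5, Alox5ap and Ltc4s. They were chosen by symbol from the 35510 genes of the count table, each symbol matched 1 row, and 10 of 10 passed the filter on low counts, which 13482 genes passed in all. RNA was sequenced from RAW264.7, a macrophage-like line grown from a mouse tumour induced by a leukaemia virus. It is a single line, with no other cell type in the design. One group was left untreated, 1 group received LPS, and 4 groups received LPS followed by a polymer. LPS is a bacterial cell wall lipid that macrophages sense with TLR4. One polymer is POx-SA, and the 3 others share PPLG in their names: PPLG-SA, PPLG-2V-SA, and also PPLG-4V-SA. Below, each polymer's name stands for LPS followed by that polymer. Each of the 6 groups has 3 libraries. The labels give no dose, no time and no meaning of the polymer codes, and no group received a polymer without LPS.

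Eicosanoids are short-lived lipid mediators made from arachidonic acid. Cytosolic phospholipase A2 (Pla2g4a) frees arachidonic acid from membranes. In the prostanoid branch the cyclooxygenases Ptgs1 and Ptgs2 turn it into prostaglandin H2, which prostaglandin E synthases (Ptges, Ptges2, Ptges3) and thromboxane synthase (Tbxas1) convert further. In the leukotriene branch 5-lipoxygenase (Alox5), helped by its activating protein (Alox5ap), makes leukotriene A4, and Ltc4s joins it to glutathione. In macrophages Ptgs2 and Ptges are known as genes that inflammatory stimuli induce, while Ptgs1, Ptges2 and Ptges3 are usually described as constitutive.

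Total counts ranged from 9755591 to 19759549 per library. Levels are given as CPM (counts of a gene per fixed number of library counts), scaled to TMM-adjusted library sizes, and levels of different genes are compared only as the authors' FPKM, which also divide by gene length. Nothing in the labels says whether the 3 libraries of a group came from separate cultures. The p-values rest on the spread between libraries within groups, estimated over the 6 groups in 1 fit, and that spread may be technical. The third LPS library stood apart: a chi-square of its counts against the first and the second was 52.9 and 69.7 per degree of freedom. Between the first and the second it was 12.2. The 3 POx-SA libraries all differed widely from each other (44.4, 76.4 and 54.4). Deviations of the third LPS and the third POx-SA library from their group means correlated at 0.892 across genes. All 10 macrophage markers were detected in each group, with summed levels of 12060 to 13150 CPM in untreated cells, 7114 to 8233 for LPS, 5643 to 8313 for POx-SA and 4028 to 5378 with the PPLG polymers. Of 7 mast cell markers, all were at 0 in 5 groups, and Cma1 alone was above 0 with PPLG-SA, at up to 0.0608 CPM. Of 8 neutrophil markers, Ly6g, Elane and Ngp were at 0 in untreated cells and with LPS. The list's sum of 2396 to 2655 CPM in untreated cells was nearly all S100a8, at a mean of 2492 CPM. The neutrophil sum was 150 to 255 CPM for LPS, 36.1 to 63.8 for POx-SA and at most 0.464 with the PPLG polymers. Fibroblast, lymphocyte and platelet markers summed to at most 8.27, 1.60 and 15.3 CPM. The part of these shifts in the results below was not tested.

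**Figure D1:**
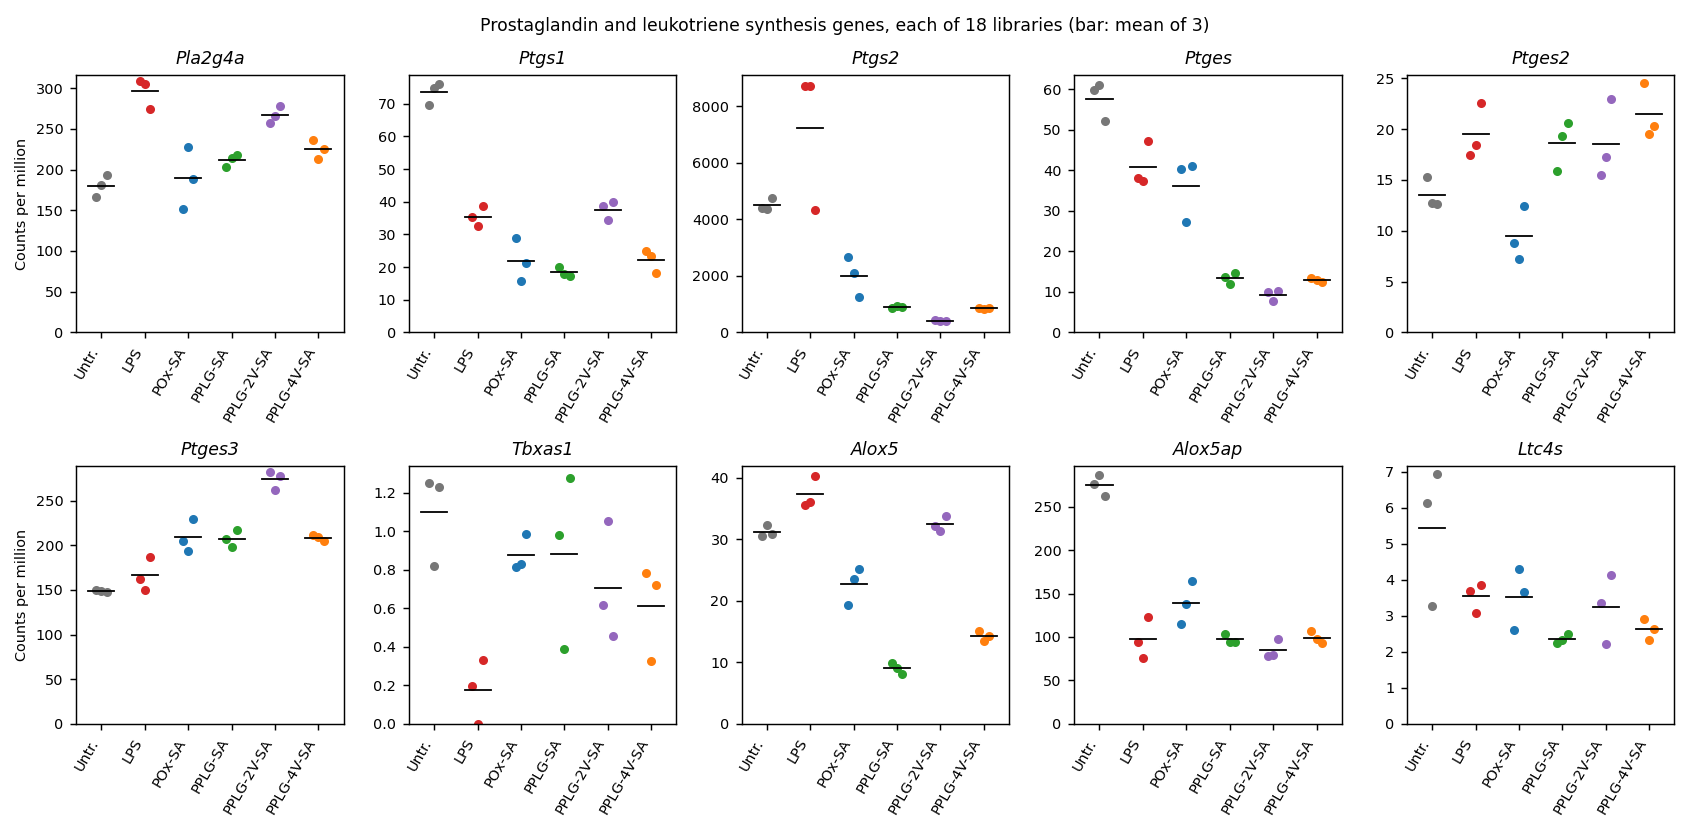
Expression of the 10 genes in each of 18 libraries, in CPM, with 3 points per group and a bar at their mean; the vertical axis of each panel starts at 0. Ptgs2 lies at 8709 and 8713 CPM in 2 LPS libraries and at 405 to 435 in the PPLG-2V-SA libraries, and Alox5 is at 31.3 to 33.8 CPM with PPLG-2V-SA but 8.14 to 9.78 with PPLG-SA.

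Ptgs2, the inducible cyclooxygenase, was already abundant in untreated cells and fell below that level with every polymer. In untreated cells it stood at 4399, 4364 and 4752 CPM. With LPS the values were 8709, 8713 and 4320 CPM, so that 2 LPS libraries lay above every untreated library and the other lay below all 3. The log2 fold change of LPS against untreated was 0.69 ± 0.23 (SE), with an adjusted p of 0.0167 by the quasi-likelihood test of edgeR with Benjamini-Hochberg adjustment. Without the third LPS library it was 0.96 (adjusted p = 0.000223, edgeR). Without the first or the second LPS library it was 0.54 in each case and no longer passed (adjusted p = 0.0786 and 0.0761, edgeR).

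After the polymers, Ptgs2 fell in each of the 4 groups, and no polymer library overlapped an LPS library. With POx-SA it stood at 2657, 2094 and 1264 CPM, 3.61-fold below the LPS group (log2 fold change -1.85 ± 0.24, edgeR adjusted p = 7.02e-06). With PPLG-SA it stood at 874, 923 and 889 CPM, 8.09-fold below (-3.02 ± 0.25, edgeR adjusted p = 1.98e-08). The PPLG-2V-SA libraries held 435, 405 and 416 CPM, 17.3-fold below LPS (-4.11 ± 0.26, edgeR adjusted p = 4.79e-10). Those of PPLG-4V-SA held 878, 816 and 855 CPM, 8.53-fold below (-3.09 ± 0.25, edgeR adjusted p = 1.72e-08). The spread among libraries was wide in the LPS and POx-SA groups (SD 2535 and 701 CPM, n = 3) and narrow with the PPLG polymers (SD 25.0 CPM for PPLG-SA, 15.1 for PPLG-2V-SA and 31.6 for PPLG-4V-SA, n = 3). Without the third LPS and the third POx-SA library the 4 log2 fold changes were -1.86, -3.30, -4.40 and -3.38. The main fit shares its estimate of spread over all groups. With only the 2 compared groups in the fit, the adjusted p-values were larger, at 0.0106, 7.72e-05, 1.36e-05 and 5.91e-05 (edgeR). In these bulk libraries a lower level in each cell and a smaller number of cells with the transcript cannot be told apart.

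Ptgs2 also lay below untreated cells with each polymer. Its log2 fold change against untreated was -1.17 with POx-SA, -2.33 with PPLG-SA, -3.43 with PPLG-2V-SA and -2.41 with PPLG-4V-SA (edgeR adjusted p = 0.000362, 1.61e-07, 1.45e-09 and 1.02e-07). These 4 comparisons share the 3 untreated libraries. A single gene, Ptgs2 took 0.354% to 0.387% of all counts in untreated libraries, 0.407% to 0.906% with LPS and 0.0464% to 0.0496% with PPLG-2V-SA. The genes Ptgs2os and Ptgs2os2, named as opposite-strand transcripts of Ptgs2, had 0 to 25 and 130 to 597 counts per library, against 7305 to 134903 for Ptgs2. The RefSeq table used here lists no gene that overlaps Ptgs2, and whether any reads are shared was not tested.

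Ptgs1, the constitutive cyclooxygenase, fell with LPS and fell further with 3 of the 4 polymers. It stood at 69.6, 75.0 and 76.0 CPM in untreated cells and at 35.3, 32.5 and 38.7 with LPS. That was a log2 fold change of -1.05 ± 0.16 (edgeR adjusted p = 2.81e-05), with no overlap. From LPS it fell further by 0.69 ± 0.17 on the log2 scale with POx-SA (28.8, 15.7 and 21.4 CPM), by 0.94 ± 0.17 with PPLG-SA (20.1, 17.9 and 17.3 CPM) and by 0.68 ± 0.16 with PPLG-4V-SA (24.9, 23.4 and 18.1 CPM). The edgeR adjusted p-values were 0.00239, 0.000112 and 0.00188. With PPLG-2V-SA, at 38.8, 34.3 and 39.9 CPM, Ptgs1 overlapped the LPS libraries. The difference from LPS was 0.09 on the log2 scale with a 95% interval from -0.25 to 0.42 (edgeR adjusted p = 0.661). The POx-SA call was lost when only the 6 libraries of the compared groups were fitted (adjusted p = 0.0616, edgeR).

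The balance of the cyclooxygenases, taken as the ratio of Ptgs2 to Ptgs1 FPKM in each library, spanned 6.57 to 171. It was 41.7, 38.9 and 42.0 in untreated cells and 156, 171 and 72.6 with LPS. POx-SA libraries had 60.7, 82.3 and 36.7, PPLG-SA libraries 26.6, 33.1 and 31.2, and PPLG-4V-SA libraries 21.9, 21.7 and 29.2. With PPLG-2V-SA the ratio was 7.14, 7.53 and 6.57. All LPS libraries lay above the untreated ones, all libraries of the 3 PPLG polymers below them, and POx-SA on both sides.

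**Figure D2:**
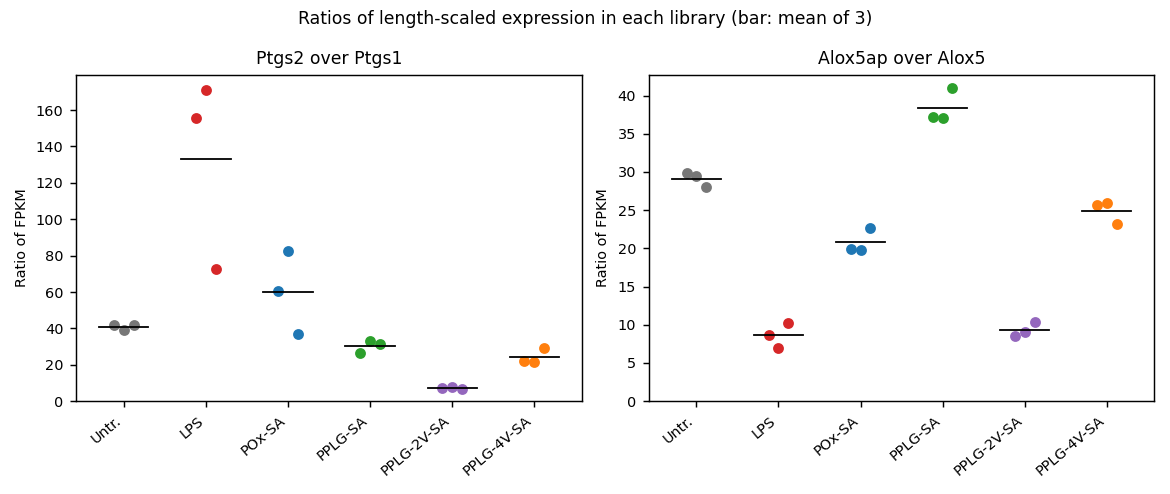
Ratio of FPKM values of Ptgs2 to Ptgs1 (left) and of Alox5ap to Alox5 (right) in each library, 3 points per group with a bar at their mean, on axes that start at 0. The Ptgs2 to Ptgs1 ratio is highest in 2 LPS libraries (156 and 171) and lowest with PPLG-2V-SA (6.57 to 7.53), while the Alox5ap to Alox5 ratio is highest with PPLG-SA (37.0 to 41.0).

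Ptges, the inducible membrane-bound prostaglandin E synthase, was lower after the PPLG polymers, but its difference between POx-SA and LPS did not pass the test. It stood at 59.8, 61.0 and 52.3 CPM in untreated cells and 38.0, 37.3 and 47.3 with LPS (log2 fold change -0.50 ± 0.15, edgeR adjusted p = 0.0081). This decrease with LPS was lost when counts were scaled to library totals and in both analyses of FPKM (log2 differences of -0.23, -0.17 and -0.18). With POx-SA the values were 40.2, 27.2 and 41.2 CPM, overlapping LPS. That log2 difference was -0.17, with a 95% interval from -0.49 to 0.14 (edgeR adjusted p = 0.356), although both analyses of FPKM called it lower (-0.39 and -0.43).

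With PPLG-SA, Ptges fell to 13.6, 11.8 and 14.7 CPM, 3.06-fold below LPS (log2 fold change -1.61 ± 0.16, edgeR adjusted p = 1.42e-07). It reached 9.96, 7.82 and 10.3 CPM with PPLG-2V-SA, 4.36-fold below LPS (-2.13 ± 0.16, edgeR adjusted p = 3.77e-09). It reached 13.4, 12.9 and 12.3 CPM with PPLG-4V-SA, 3.17-fold below LPS (-1.66 ± 0.15, edgeR adjusted p = 9.76e-08). No library of these 3 groups overlapped LPS, and the decreases were called under each alternative tried. A predicted gene, Gm52550, overlaps Ptges in the RefSeq table and had 0 to 7 counts per library, against 141 to 711 for Ptges. The ratio of Ptges CPM on library totals to its FPKM varied from 4.01 to 5.40 among libraries, so the deposited count and FPKM tables do not carry quite the same profile for it.

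Ptges3, the cytosolic prostaglandin E synthase also known as the Hsp90 co-chaperone p23, moved the opposite way. It stood at 150, 149 and 147 CPM in untreated cells and 162, 150 and 187 with LPS, a difference that did not pass (log2 fold change 0.16, edgeR adjusted p = 0.148). Without the second LPS library that difference passed at 0.24 (adjusted p = 0.0477, edgeR), as it did with library totals (0.43) and with FPKM (0.49 and 0.50). Ptges3 rose from LPS to 204, 194 and 230 CPM with POx-SA and to 207, 199 and 217 with PPLG-SA. It rose to 283, 262 and 278 CPM with PPLG-2V-SA and to 212, 209 and 205 with PPLG-4V-SA. All polymer libraries lay above all LPS libraries, and the PPLG-2V-SA libraries lay above every other library. The log2 fold changes against LPS were 0.33, 0.32, 0.72 and 0.33 in that order (edgeR adjusted p = 0.00696, 0.00654, 3.19e-06 and 0.00627). With only the 2 compared groups in the fit the POx-SA call was lost, and with the replicate number added as a block to that fit the PPLG-4V-SA call was lost. Near copies could share reads with Ptges3: Ptges3-ps had 3 to 72 counts and Ptges3l 49 to 253 per library, against 1200 to 6122 for Ptges3.

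Ptges2, the membrane-associated prostaglandin E synthase of constitutive type, fell with POx-SA and with no other polymer in the test against LPS. It had 15.3, 12.7 and 12.6 CPM in untreated cells and 17.5, 18.4 and 22.6 with LPS. The rise with LPS was 0.53 ± 0.20 on the log2 scale (edgeR adjusted p = 0.0271). It was lost without the third LPS library (0.42, adjusted p = 0.0939, edgeR) and without the second or the third untreated library (0.49 and 0.48, adjusted p = 0.0845 and 0.0848, edgeR). With POx-SA the values were 8.76, 7.26 and 12.5 CPM, each below every LPS and untreated library, and 2.05-fold below LPS (-1.04 ± 0.19, edgeR adjusted p = 0.000304). In the 9 libraries of the PPLG polymers it lay between 15.5 and 24.5 CPM and overlapped LPS. The 95% intervals of the log2 differences from LPS were -0.46 to 0.32 for PPLG-SA, -0.46 to 0.32 for PPLG-2V-SA and -0.25 to 0.52 for PPLG-4V-SA. On the FPKM scale Ptges2 was at 0.51 times Ptges in untreated cells and at 5.66 times Ptges with PPLG-2V-SA (SD 0.0547 and 1.26, n = 3).

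Tbxas1, the thromboxane synthase, was at the edge of detection. Its counts were 10, 7 and 11 in untreated libraries, 3, 0 and 5 with LPS, 11, 11 and 14 with POx-SA, 14, 6 and 21 with PPLG-SA, 11, 19 and 10 with PPLG-2V-SA, and 14, 6 and 14 with PPLG-4V-SA. The LPS libraries had the fewest counts, and they overlapped those of PPLG-4V-SA on the CPM scale. edgeR called the decrease with LPS (log2 fold change -2.60, adjusted p = 0.00323) and a rise from LPS with each polymer (1.76 to 2.29). Both analyses of FPKM lost the LPS call and the calls of the 3 PPLG polymers, and the POx-SA call was lost with only those 2 groups in the fit (adjusted p = 0.053, edgeR). The PPLG-2V-SA call was also lost without the second LPS library (1.39, adjusted p = 0.0648, edgeR) or the second PPLG-2V-SA library (1.56, adjusted p = 0.0787, edgeR). The PPLG-4V-SA call was lost without the first or the second LPS library (1.84 and 1.19, adjusted p = 0.0693 and 0.123, edgeR), and without the first or the third PPLG-4V-SA library (1.55 and 1.62, adjusted p = 0.1 and 0.0899, edgeR). Tbxas1 overlaps Hipk2 and shorter genes in the RefSeq table, Hipk2 had 860 to 2872 counts, and the ratio of Tbxas1 CPM to FPKM varied from 2.36 to 45.0 among the 17 libraries with a count. Its values are therefore uncertain.

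In the leukotriene branch, Alox5, the enzyme that starts leukotriene synthesis, fell with 3 of the 4 polymers, and its difference between PPLG-2V-SA and LPS did not pass. It stood at 30.4, 32.2 and 30.8 CPM in untreated cells and at 35.6, 36.0 and 40.3 with LPS. That rise of 0.26 ± 0.11 on the log2 scale was marginal (edgeR adjusted p = 0.0462), and 11 of 16 alternatives lost it. Without the second or the third LPS library it was 0.29 and 0.21, and without the first, the second or the third untreated library 0.24, 0.28 and 0.26 (adjusted p from 0.0531 to 0.148, edgeR).

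After the polymers Alox5 stood at 19.3, 23.5 and 25.1 CPM with POx-SA, 1.65-fold below LPS (log2 fold change -0.72 ± 0.11, edgeR adjusted p = 3.18e-05). PPLG-SA libraries held 9.78, 9.05 and 8.14 CPM, 4.15-fold below LPS (-2.05 ± 0.11, edgeR adjusted p = 1.31e-10), and PPLG-4V-SA libraries 15.1, 13.4 and 14.2 CPM, 2.62-fold below (-1.39 ± 0.11, edgeR adjusted p = 1.17e-08). The libraries of these 3 groups lay below every untreated and LPS library. With PPLG-2V-SA, Alox5 stood at 32.1, 31.3 and 33.8 CPM, below the LPS libraries with a log2 interval of -0.42 to 0.02 for the difference (edgeR adjusted p = 0.102), and its range overlapped that of untreated cells. The predicted gene Gm38880, which overlaps Alox5, had 1 to 23 counts against 134 to 746 for Alox5.

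Alox5ap, the membrane protein that presents arachidonic acid to 5-lipoxygenase, was highest in untreated cells. It stood there at 277, 287 and 263 CPM and with LPS at 94.1, 75.2 and 123, 2.83-fold lower (log2 fold change -1.50 ± 0.16, edgeR adjusted p = 3.24e-07). The PPLG-SA libraries held 104, 94.6 and 93.9 CPM, the PPLG-2V-SA libraries 77.5, 79.8 and 97.8, and the PPLG-4V-SA libraries 107, 97.5 and 92.8. They overlapped the LPS libraries, and the 95% intervals of the log2 differences were -0.32 to 0.32, -0.52 to 0.13 and -0.30 to 0.35. POx-SA gave 115, 138 and 165 CPM, a rise from LPS of 0.52 ± 0.15 on the log2 scale (edgeR adjusted p = 0.0104) with overlapping ranges. That call was lost without the second LPS library (0.36, adjusted p = 0.0638, edgeR) and with only the 2 groups in the fit.

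Alox5ap and Alox5 therefore differed in order across the groups. On the FPKM scale the ratio of Alox5ap to Alox5 was 28.0 to 29.8 in untreated cells and 6.92 to 10.3 with LPS. It was 19.8 to 22.7 with POx-SA, 37.0 to 41.0 with PPLG-SA, 8.55 to 10.3 with PPLG-2V-SA and 23.2 to 25.9 with PPLG-4V-SA. The PPLG-2V-SA libraries overlapped those of LPS, and the PPLG-SA libraries above all others.

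Ltc4s, the leukotriene C4 synthase, had between 28 and 91 counts per library. It stood at 6.14, 3.27 and 6.93 CPM in untreated cells, at 3.68, 3.06 and 3.86 with LPS, and at 2.22 to 4.31 over the polymer libraries. None of its differences in LPS against untreated or in polymers against LPS passed the test. Without the second untreated library, the log2 difference of LPS from untreated was -0.89 and passed (adjusted p = 0.0113, edgeR), and DESeq2 called it with all libraries (-0.67, adjusted p = 0.0399). Against untreated cells it was lower by log2 fold changes of -1.21 for PPLG-SA, -0.74 for PPLG-2V-SA and -1.05 for PPLG-4V-SA (edgeR adjusted p = 0.00131, 0.0225 and 0.00303). None of these 3 passed on FPKM, where the PPLG-2V-SA value had the opposite sign (0.07 and 0.08). The PPLG-2V-SA call was also lost without the first or the third untreated library (-0.68 and -0.55) or the second PPLG-2V-SA library (-0.53), with adjusted p of 0.0701, 0.128 and 0.114 by edgeR. It was lost as well with library totals (-0.27, adjusted p = 0.364, edgeR) and with no filter (-0.68, adjusted p = 0.0513, edgeR). Library totals also lost the PPLG-4V-SA call (-0.61, adjusted p = 0.0516, edgeR).

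Pla2g4a, the phospholipase that supplies both branches, rose with LPS and came down with 3 of the 4 polymers. It stood at 166, 182 and 194 CPM in untreated cells and 309, 305 and 274 with LPS, a log2 fold change of 0.71 ± 0.12 with no overlap (edgeR adjusted p = 5.56e-05). From LPS it fell by 0.64 ± 0.12 on the log2 scale with POx-SA (152, 228 and 188 CPM), by 0.48 ± 0.12 with PPLG-SA (204, 214 and 218 CPM) and by 0.39 ± 0.12 with PPLG-4V-SA (237, 213 and 226 CPM). The edgeR adjusted p-values were 0.00024, 0.00187 and 0.00849, and the last of these calls was lost with library totals and with FPKM. PPLG-2V-SA libraries, at 257, 266 and 278 CPM, overlapped LPS, with a log2 interval of -0.39 to 0.10 (edgeR adjusted p = 0.28). Pla2g4a and Ptgs2 are neighbouring protein-coding genes in the RefSeq table, and the fold between LPS and PPLG-2V-SA was 1.11 for Pla2g4a and 17.3 for Ptgs2. In FPKM, Ptgs2 was 15.7 to 17.3 times Pla2g4a in untreated cells and 0.94 to 1.06 times with PPLG-2V-SA.

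**Figure D3:**
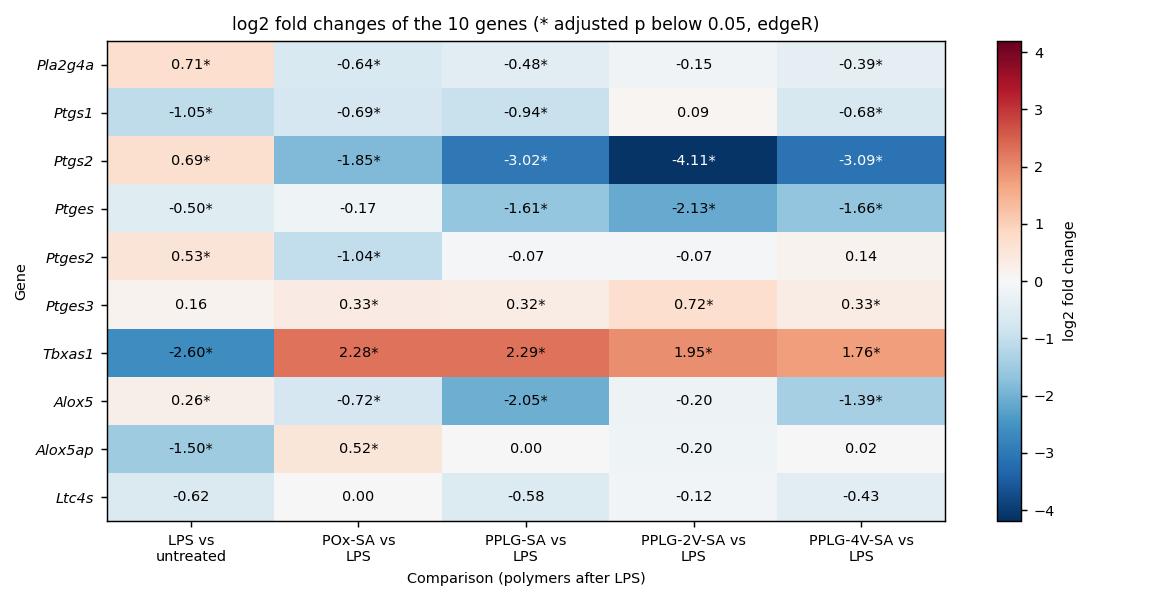
log2 fold changes of the 10 genes (rows) in LPS against untreated and in each polymer against LPS (columns), coloured from blue (lower) to red (higher); a star marks an adjusted p below 0.05 by edgeR. Ptgs2 has the lowest value in the plot, -4.11 with PPLG-2V-SA, and Ptges3 is above 0 in each column.

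Counted over the 10 genes, 4 rose and 4 fell with LPS, where 30.8% of all tested genes rose and 28.4% fell, 59.2% together. Against LPS with POx-SA, 3 of the 10 rose and 5 fell, where 22.2% of all tested genes rose and 24.1% fell (46.3% together). With PPLG-SA 2 rose and 5 fell (29.2% and 30.7% of all tested genes, 59.9% together). With PPLG-2V-SA 2 rose and 2 fell (30.8% and 30.2%, 61.0% together), and with PPLG-4V-SA 2 rose and 5 fell (28.0% and 27.1%, 55.1% together). The median log2 fold changes of the 10 genes in these 5 comparisons were -0.17, -0.41, -0.53, -0.14 and -0.41, and the medians over all tested genes lay between -0.0011 and 0.033. With so many of all tested genes called, nothing particular to the 10 genes is read from these counts, and the 4 polymer comparisons share the LPS libraries.

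Against untreated cells 1 rose and 6 fell with POx-SA, where 30.4% of all tested genes rose and 27.9% fell (58.3% together). With PPLG-SA 2 rose and 6 fell (35.1% and 32.8%, 67.9% together), with PPLG-2V-SA 3 rose and 5 fell (38.2% and 35.8%, 74.0% together), and with PPLG-4V-SA 3 rose and 6 fell (36.7% and 33.6%, 70.3% together). Ptgs1, Ptgs2, Ptges and Alox5ap were below untreated cells in each of those 4 comparisons, and Ptges3 was above. Some other calls depended on the processing. Ptges2 with POx-SA was lost with library totals (-0.33, adjusted p = 0.158, edgeR). DESeq2 size factors lost Ptges2 with PPLG-SA and PPLG-2V-SA (adjusted p = 0.0664 and 0.0768, edgeR) and Pla2g4a with PPLG-4V-SA (adjusted p = 0.0801, edgeR). Other calls were gained, such as Pla2g4a with PPLG-SA on library totals (0.62, adjusted p = 6.46e-05, edgeR).

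The summed FPKM of the 10 genes was 1181 to 1243 in untreated libraries, 2236, 2363 and 1298 after LPS alone, and 901, 754 and 641 for POx-SA. It was 531 to 631 over the 9 libraries of the PPLG polymers. Ptgs2 made up 64.1% to 66.6% of this sum in untreated libraries, 84.5%, 85.6% and 70.3% with LPS, and 17.8% to 19.9% with PPLG-2V-SA. With PPLG-2V-SA the largest share was that of Ptges3, at 29.3% to 31.9%.

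The 4 polymers were compared with each other in 6 pairs, with p-values adjusted over all tested genes within each pair. Doses and times are not given, so it is not known whether they match. Ptgs2 was lower with PPLG-2V-SA than with POx-SA (log2 fold change -2.26 ± 0.24), PPLG-SA (-1.10 ± 0.23) and PPLG-4V-SA, where the reverse comparison gave 1.02 ± 0.23. The edgeR adjusted p-values were 3.04e-07, 0.00207 and 0.00727, and the ranges did not overlap. Alox5 was higher with PPLG-2V-SA than with POx-SA (0.52 ± 0.11, edgeR adjusted p = 0.0004) and PPLG-SA (1.85 ± 0.11, edgeR adjusted p = 3.38e-09), and PPLG-4V-SA was below PPLG-2V-SA by -1.19 ± 0.11 (edgeR adjusted p = 8.47e-07). Ptgs1 was likewise higher with PPLG-2V-SA, by 0.78 and 1.03 on the log2 scale over POx-SA and PPLG-SA, with PPLG-4V-SA lower at -0.77 (edgeR adjusted p = 0.000518, 0.000211 and 0.00419). Ptges3 was higher as well, by 0.39 and 0.40 over POx-SA and PPLG-SA, with PPLG-4V-SA lower at -0.39 (edgeR adjusted p = 0.00135, 0.00362 and 0.00832).

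Between PPLG-2V-SA and POx-SA 5 of the 10 genes were higher and 3 lower (32.4% and 31.6% of all tested genes, 64.0% together). Between PPLG-2V-SA and PPLG-SA, 4 were higher and 2 lower (14.7% and 13.2%, 27.9% together). Of those, Pla2g4a (0.33, adjusted p = 0.0415, edgeR) was lost without any 1 of the 6 libraries, at 0.30 to 0.36. Ptges (-0.51, adjusted p = 0.0237, edgeR) was lost without the first or the third PPLG-SA library (-0.50 and -0.44) or the second PPLG-2V-SA library (-0.40). Between PPLG-4V-SA and PPLG-2V-SA, 1 was higher and 3 were lower (7.53% and 4.47%, 12.0% together), and Ptges did not pass (0.46, adjusted p = 0.0698, edgeR). Ptges passed with the DESeq2 test (adjusted p = 0.0439), the replicate block, both FPKM analyses and both 2-group fits. It also passed without the third LPS and the third POx-SA libraries (adjusted p = 0.021, edgeR), and the other alternatives did not call it.

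PPLG-4V-SA and PPLG-SA were the closest pair in these tests, with 1.08% of all tested genes higher and 0.579% lower, 1.65% together. Of the 10 genes, Alox5 alone passed, higher with PPLG-4V-SA by 0.66 ± 0.11 on the log2 scale with no overlap (edgeR adjusted p = 0.0114). The size was 0.59 to 0.73 under the alternatives. The call was lost without the first or the third PPLG-SA library (0.73 and 0.60, adjusted p = 0.0551 and 0.061, edgeR) and without the first or the third PPLG-4V-SA library (0.62 and 0.67, adjusted p = 0.0699 and 0.0539, edgeR). For Ptgs2 the log2 difference was -0.08 with a 95% interval from -0.56 to 0.41, for Ptges -0.05 (-0.39 to 0.28), for Ptgs1 0.26 (-0.09 to 0.61) and for Ptges3 0.01 (-0.19 to 0.20). These intervals bound the differences and do not show that the compounds act alike.

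Against POx-SA, 1 of the 10 genes was higher and 4 were lower with PPLG-SA (28.3% and 29.5% of all tested genes, 57.7% together), and likewise 1 and 4 with PPLG-4V-SA (29.6% and 28.3%, 57.9% together). Ptgs2 was lower with PPLG-SA (-1.16 ± 0.23, edgeR adjusted p = 0.000391) and PPLG-4V-SA (-1.24 ± 0.23, edgeR adjusted p = 0.000219). Ptges was lower by log2 fold changes of -1.44 and -1.49, and Alox5 by -1.33 and -0.67. Ptges2 was higher by 0.97 and 1.17, and by 0.97 with PPLG-2V-SA (edgeR adjusted p = 0.000383, 5.46e-05 and 0.000293). Alox5ap was lower by -0.52 and -0.49, calls that the FPKM analyses lost.

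**Figure D4:**
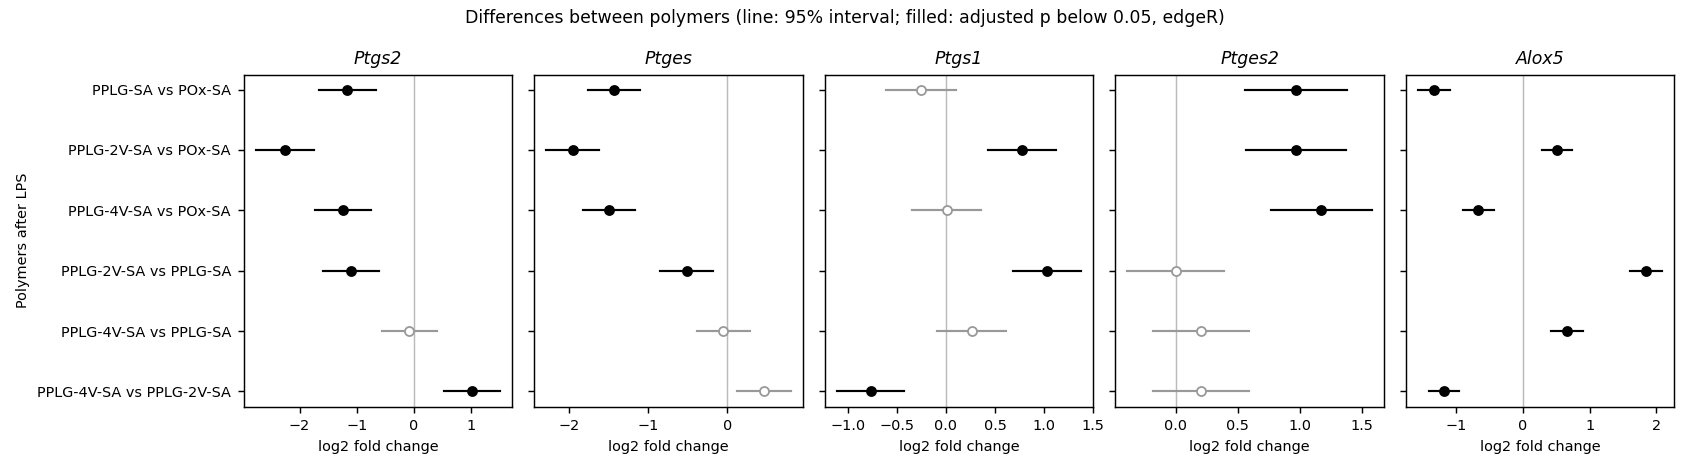
log2 fold changes between pairs of polymers for Ptgs2, Ptges, Ptgs1, Ptges2 and Alox5; points are estimates, lines 95% intervals, and filled points passed an adjusted p below 0.05 by edgeR. The PPLG-4V-SA against PPLG-SA interval spans 0 for Ptgs2 (-0.56 to 0.41) and lies above 0 for Alox5.

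The rest of the eicosanoid pathway was read from 9 lists with 87 genes, of which 60 were tested. The examples are the 3 tested genes of each list with the highest mean CPM. The counts below stand beside 59.2% of all tested genes called with LPS (30.8% higher, 28.4% lower), 46.3% with POx-SA against LPS (22.2% and 24.1%), 59.9% with PPLG-SA (29.2% and 30.7%), 61.0% with PPLG-2V-SA (30.8% and 30.2%) and 55.1% with PPLG-4V-SA (28.0% and 27.1%). The lists are short and were not tested as sets, so nothing particular to a list is read from its counts. Among phospholipases A2 and their inhibitor (9 tested), 1 rose and 6 fell with LPS, 3 rose and 5 fell with POx-SA, 3 rose and 5 fell with PPLG-SA, and 2 rose and 5 fell with PPLG-2V-SA and with PPLG-4V-SA. The list's median log2 fold changes were -0.83, -0.43, -0.80, -1.29 and -0.75. Pla2g5, a secreted phospholipase A2 of macrophages, stood at 153, 161 and 181 CPM with LPS and at 18.8 to 27.5 over the 9 PPLG libraries. Its log2 fold changes from LPS were -2.89 with PPLG-SA, -3.00 with PPLG-2V-SA, -2.65 with PPLG-4V-SA and 0.57 with POx-SA (edgeR adjusted p = 1.46e-12, 4.25e-13, 3.3e-12 and 0.000162). Anxa1, a phospholipase A2 inhibitor, fell with LPS (-0.61) and with POx-SA (-0.65) and rose with the PPLG polymers (0.88, 0.68 and 0.80). Plaa, a phospholipase A2-activating protein, rose with LPS (0.89, edgeR adjusted p = 5.89e-08).

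Genes of arachidonate remodelling, which build arachidonic acid and move it in and out of phospholipids, were counted in the same way. Of 11 tested, 3 rose and 1 fell with LPS, 3 rose and 6 fell with POx-SA, 7 rose and 2 fell with PPLG-SA, 6 rose with PPLG-2V-SA, and 7 rose and 2 fell with PPLG-4V-SA. Their medians were 0.15, -0.48, 0.40, 0.65 and 0.62. Fads1, a fatty acid desaturase on the route to arachidonic acid, was at 89.8, 90.8 and 94.8 CPM with LPS and 338, 343 and 343 with PPLG-2V-SA (log2 fold change 1.89, edgeR adjusted p = 1.62e-11). Acsl5, an acyl-CoA synthetase, rose by 1.99, 2.09 and 2.01 with the 3 PPLG polymers (edgeR adjusted p = 7.25e-10, 2.55e-10 and 7.45e-10). Acsl4, the synthetase that prefers arachidonic acid, had log2 differences from LPS of -0.17 to 0.01, none of which passed. Without the third LPS library the values of POx-SA and PPLG-4V-SA passed, at -0.32 and -0.30.

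The other prostanoid synthases numbered 4. With LPS 1 rose, with POx-SA 2 rose and 1 fell, with PPLG-SA 1 rose and 1 fell, with PPLG-2V-SA 1 rose and 2 fell, and with PPLG-4V-SA 1 rose and 1 fell (medians -0.02, 0.75, 0.06, -0.34 and 0.13). Akr1b3, an aldose reductase with prostaglandin F synthase activity, reached 759, 596 and 852 CPM with POx-SA, against 147, 152 and 189 with LPS (log2 fold change 2.18 ± 0.13, edgeR adjusted p = 1.56e-09). Hpgds, the haematopoietic prostaglandin D synthase, reached 180, 201 and 157 CPM with POx-SA, against 79.3, 77.2 and 60.0 with LPS (1.31 ± 0.13, edgeR adjusted p = 3.07e-07), and fell with PPLG-2V-SA (-0.73, edgeR adjusted p = 9.71e-05). No POx-SA library overlapped any other group for these genes. Cbr1, a carbonyl reductase, lay between 12.4 and 21.1 CPM in every library, and its differences from LPS did not pass in the main edgeR test with all libraries. For LPS against untreated it was called lower with DESeq2 size factors (-0.46, adjusted p = 0.033, edgeR) and with the replicate block (-0.43, adjusted p = 0.0273, edgeR). Without the third LPS library that value was -0.62 (adjusted p = 0.00666, edgeR).

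For prostaglandin breakdown and transport (4 tested), 2 rose with LPS, 1 rose and 2 fell with POx-SA, 2 fell with PPLG-SA, 0 were called with PPLG-2V-SA by edgeR (0 at an unadjusted p below 0.05, 0 by DESeq2) and 1 fell with PPLG-4V-SA (medians 0.31, -0.34, -0.32, 0.06 and -0.13). Ptgr3, a prostaglandin reductase, rose with LPS from 15.9, 16.5 and 16.7 to 45.1, 54.4 and 42.1 CPM (1.53 ± 0.14, edgeR adjusted p = 6.44e-08). It fell from LPS with POx-SA (-0.81) and PPLG-SA (-0.83), and was also called lower with PPLG-4V-SA. Ptgr2, another such reductase, had log2 differences of 0.59 with LPS and -0.47 with POx-SA from LPS, and without the third LPS library these were 0.32 and -0.18 and did not pass. Without that library the Ptgr2 value of PPLG-2V-SA against LPS did pass (0.38, adjusted p = 0.0364, edgeR). Abcc4, an exporter of prostaglandins, differed from LPS by -0.32 to -0.01, and the PPLG-SA value (-0.32, adjusted p = 0.023, edgeR) did not pass without the first (-0.27) or second (-0.24) LPS library or the first PPLG-SA library (-0.25). Without the third LPS library those of POx-SA (-0.32) and PPLG-4V-SA (-0.34) passed as well.

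In leukotriene conversion and export (5 tested), 1 rose and 3 fell with LPS, 1 rose and 1 fell with POx-SA, 2 rose and 2 fell with PPLG-SA, 2 rose and 1 fell with PPLG-2V-SA, and 2 rose and 2 fell with PPLG-4V-SA (medians -0.24, -0.16, 0.29, 0.24 and 0.17). Lta4h, which makes leukotriene B4, rose with LPS (0.76, edgeR adjusted p = 6.37e-05). Dpep2, a dipeptidase that trims leukotriene D4, fell from LPS with each polymer, by log2 fold changes of -0.70, -0.80, -1.27 and -0.83 in the order used so far (edgeR adjusted p = 0.00133, 0.000292, 2.02e-06 and 0.000225). Abcc1, the exporter of leukotriene C4, rose with the 3 PPLG polymers (0.48, 0.82 and 0.47). Of 3 tested genes of other lipoxygenases and epoxide hydrolases, 1 rose with LPS, 0 were called with POx-SA by edgeR (0 at an unadjusted p below 0.05, 0 by DESeq2), 2 fell with PPLG-SA, and 1 rose and 1 fell with PPLG-2V-SA and with PPLG-4V-SA (medians 0.33, -0.24, -1.51, -0.28 and -0.62). Alox15 and Aloxe3 were at most 1.11 CPM, near the edge of detection, and Ephx1, the microsomal epoxide hydrolase, rose with PPLG-4V-SA (1.02, edgeR adjusted p = 0.0012). Without the third POx-SA library Ephx1 fell from LPS with POx-SA (-0.80, adjusted p = 0.00695, edgeR). Without the third LPS library as well, that value was -0.58 (adjusted p = 0.0317, edgeR).

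**Figure D5:**
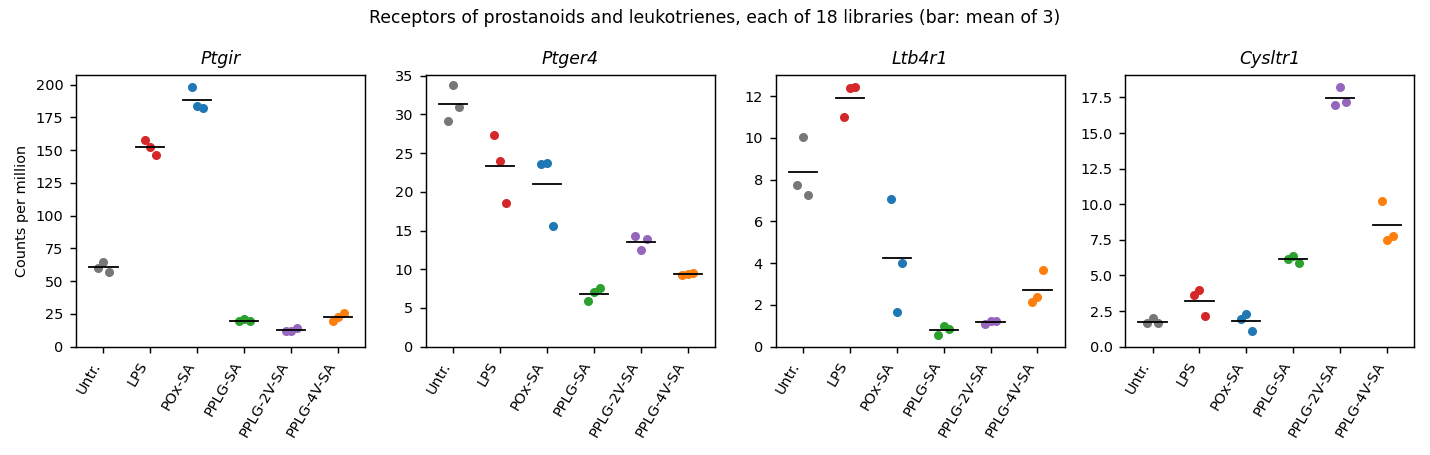
Expression of 2 prostanoid receptors (Ptgir, Ptger4) and 2 leukotriene receptors (Ltb4r1, Cysltr1) in each of 18 libraries, in CPM, with 3 points per group and a bar at their mean; axes start at 0. Ptgir is at 147 to 198 CPM with LPS and POx-SA and at 11.6 to 25.8 with the PPLG polymers, and Cysltr1 is highest with PPLG-2V-SA (17.0 to 18.3).

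Of 4 prostanoid receptors tested, 2 rose and 2 fell with LPS, 1 rose and 1 fell with POx-SA, 1 rose and 3 fell with PPLG-SA, 3 fell with PPLG-2V-SA, and 1 rose and 3 fell with PPLG-4V-SA (medians 0.45, 0.08, -1.20, -0.95 and -0.98). Ptgir, the prostacyclin receptor, rose with LPS from 60.0, 64.4 and 57.2 to 158, 152 and 147 CPM (1.33 ± 0.10, edgeR adjusted p = 1.11e-08). It stood at 198, 184 and 183 CPM with POx-SA and fell to 19.5, 21.0 and 19.3 with PPLG-SA, 12.1, 11.6 and 14.3 with PPLG-2V-SA, and 19.8, 22.6 and 25.8 with PPLG-4V-SA. The decreases from LPS were -2.93, -3.58 and -2.74 on the log2 scale (edgeR adjusted p = 1.3e-12, 8.43e-14 and 2.04e-12). Ptger4, a prostaglandin E receptor, fell with the same polymers (-1.76, -0.78 and -1.32, edgeR adjusted p = 1.24e-07, 0.000387 and 2.78e-06). Ptger1, another prostaglandin E receptor, fell with LPS (-1.24, edgeR adjusted p = 2.54e-05). It was called lower than LPS with each PPLG polymer, at -1.11 with PPLG-2V-SA (edgeR adjusted p = 0.000102). The PPLG-SA call was lost without the third LPS library (-0.46, adjusted p = 0.0519, edgeR) or the third PPLG-SA library (-0.53, adjusted p = 0.0508, edgeR).

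Among 3 leukotriene and resolvin receptors, 1 rose with LPS, 2 fell with POx-SA, 1 rose and 1 fell with PPLG-SA and with PPLG-4V-SA, and 1 rose and 2 fell with PPLG-2V-SA (medians 0.87, -0.87, -0.81, -0.46 and -2.55). Ltb4r1, the high-affinity leukotriene B4 receptor, stood at 11.0, 12.4 and 12.4 CPM with LPS and fell by 1.49 on the log2 scale with POx-SA, by 3.89 with PPLG-SA, by 3.34 with PPLG-2V-SA and by 2.13 with PPLG-4V-SA. The edgeR adjusted p-values were 0.00135, 2.72e-07, 5.17e-07 and 4.4e-05. Cysltr1, a receptor of cysteinyl leukotrienes, stood at 3.62, 3.98 and 2.13 CPM with LPS and rose to 17.0, 18.3 and 17.2 with PPLG-2V-SA (2.43 ± 0.22, edgeR adjusted p = 4.7e-08), and by 0.92 with PPLG-SA and 1.39 with PPLG-4V-SA. Fpr2, a receptor for resolvins and formyl peptides, fell with PPLG-2V-SA (-2.55, edgeR adjusted p = 0.000566) from 1.23, 1.56 and 2.13 CPM.

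Of 17 tested factors known to act on Ptgs2 transcription or mRNA stability, 6 rose and 7 fell with LPS, 2 rose and 9 fell with POx-SA, 3 rose and 8 fell with PPLG-SA, 3 rose and 9 fell with PPLG-2V-SA, and 2 rose and 7 fell with PPLG-4V-SA (medians -0.02, -0.30, -0.28, -0.26 and -0.24). Zfp36, which binds AU-rich elements and shortens the life of inflammatory mRNAs, rose with LPS from 822, 819 and 835 to 2420, 2410 and 2503 CPM (1.57 ± 0.11, edgeR adjusted p = 4.35e-09). It fell from LPS by 1.38 with POx-SA, 2.95 with PPLG-SA, 3.61 with PPLG-2V-SA and 2.58 with PPLG-4V-SA on the log2 scale. In all 3 libraries of each polymer, Zfp36 was below every LPS library. Mapkapk2, a kinase that acts downstream of p38, fell with LPS (-0.92) and with POx-SA (-0.68, edgeR adjusted p = 0.000133). Rel, an NF-kappaB subunit, fell from LPS with PPLG-2V-SA (-0.68, edgeR adjusted p = 0.00676), a call that library totals and FPKM did not give.

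The genes whose log2 CPM followed those of 4 of the 10 most closely were found among 9590 genes with a mean of at least 5 CPM, over all 18 libraries, as a description only, since the libraries fall into 6 groups of 3. For Ptgs2 they were Slc28a2, a nucleoside transporter (Pearson r = 0.976), Hs1bp3 (0.974) and Sh3pxd2b (0.972). Slc28a2 had a mean of 204 CPM with LPS and 0.567 with PPLG-2V-SA, a larger fold between these groups than that of Ptgs2. For Ptges they were Stfa3, a stefin (0.990), Dhrs11 (0.988) and Fmnl3 (0.988). For Alox5ap they were Fau, which encodes a ribosomal protein fused to a ubiquitin-like protein (0.987), Chmp5 (0.984) and Gnb2 (0.984). For Ptgs1 they were Egln1, an oxygen-sensing prolyl hydroxylase (0.939), Hnrnpa0 (0.935) and Rara, a retinoic acid receptor (0.924).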

How the data were processed

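The samples are 18 RNA libraries from RAW264.7 cells, grouped by the treatment in their labels. The deposited count table holds whole-number counts per gene symbol with no normalization, judged from its values. The deposited FPKM table holds the authors' FPKM, whose making is not described. The submitters' processing notes name GRCm39 and CASAVA; the sources used here give no aligner, counter or strand setting. All columns were matched to a sample by title (0 belonged to none). The main test was edgeR 4.0.16 (R 4.3.3), quasi-likelihood, on counts, with filterByExpr (minimum count 10, minimum total 15), TMM factors (0.812 to 1.15), all 18 libraries in 1 fit with a term per group (12 residual degrees of freedom, common dispersion 0.0219), and Benjamini-Hochberg adjustment within each of 15 comparisons. Calls need an adjusted p below 0.05, SE is the log2 fold change divided by the square root of F, and SD is over 3 libraries. Named were all 10 genes, the 3 tested genes with the highest mean CPM of each pathway list, and for 4 genes the 3 most alike. All 10 genes were tested in each comparison, but not every value is printed. The members and lists were chosen with earlier results of these data known. Alternatives were DESeq2 size factors, the DESeq2 1.42.0 test, library totals, no filter, log2(FPKM + 1) and log2(FPKM + 0.1) in limma 3.58.1, 2-group fits, a replicate block, and libraries left out. Libraries of a group differed in pairs by more than sampling noise (chi-square per degree of freedom 2.54 to 76.4 over 18 pairs). Same-numbered libraries deviated together (each correlation above 0.1) in POx-SA against LPS and PPLG-2V-SA against LPS, from the data and not the labels. Gene neighbours and overlaps come from gene positions in a RefSeq table of GRCm38, not of GRCm39, and no coordinates are printed.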

Additional observations from a re-analysis of the deposited data

How the results depend on the processing

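Over 15 comparisons the 10 genes gave 150 log2 fold changes, of which 95 were called. Of the 150, 105 kept their side of the threshold under each alternative run with no turn of sign in a called value, and 84 of these also kept their sign throughout, among them 68 of the 95 calls. In the 5 comparisons of LPS with untreated and of polymers with LPS these numbers were 32 and 23 of 50 values, with 20 of 34 calls, and for the named pathway genes 81 and 65 of 135. With the replicate block, 1 of the 150 values was lost (Alox5 in LPS against untreated, adjusted p = 0.0551, edgeR) and 1 was gained (Ptges in PPLG-4V-SA against PPLG-2V-SA); it changed no other call of the 10. Library totals shifted the median of all tested genes by up to 0.48 and log2(FPKM + 0.1) by up to 0.49, both in PPLG-2V-SA against untreated. In 28 of the 150 values and 24 of the 135 the sign turned under an alternative while neither value was called. Where either value was called, signs turned for Ptges3 in PPLG-SA against POx-SA (-0.01; 0.20 and 0.21 on FPKM), Ptges3 in PPLG-4V-SA against POx-SA (-0.01; 0.25 with library totals, 0.28 on both FPKM scales), Ltc4s in PPLG-2V-SA against untreated (-0.74; 0.070 and 0.079 on FPKM), Abcc1 in LPS against untreated (-0.24; 0.040 with library totals) and Alox15 in PPLG-SA against LPS (-1.51; 0.00018 and 0.0093 on FPKM). The cause was not tested.

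With only the 6 libraries of the 2 groups, POx-SA against LPS gave 4 of the 10 genes (8 with all libraries) and 3061 genes in all (6239), PPLG-2V-SA against PPLG-SA gave 6359 genes (3766), PPLG-4V-SA against PPLG-SA 3369 (223), and PPLG-4V-SA against PPLG-2V-SA 7 of the 10 (4) and 4417 genes (1617). With the replicate block added, an alternative chosen after seeing the data, the last 3 gave 6560, 3092 and 4150 genes, PPLG-4V-SA against PPLG-2V-SA again 7 of the 10, and LPS against untreated 5 of the 10 (8). Without the third LPS and POx-SA libraries they gave 5664, 1432 and 3289 genes. PPLG-4V-SA against PPLG-SA gave 335 genes with library totals, 641 with DESeq2 and 566 with log2(FPKM + 1). Leaving out 1 library gave 5 to 90 genes and 0 to 1 of the 10 in PPLG-4V-SA against PPLG-SA, and 911 to 1237 genes in PPLG-4V-SA against PPLG-2V-SA. Depth limits Tbxas1, with at most 21 counts per library, and Ltc4s.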
